A study of Bos taurus with 43 samples.

Results

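The association of luminal gene expression with blood progesterone (P4) was followed within the 25 cows that were pregnant after embryo transfer, of 43 cows in all. These 25 are every cow with a pregnancy label of 1, and each gene was regressed on log2 P4 with the round of synchronization (block) in the model. All cows were multiparous Angus x Brahman beef cows. Each had estrus synchronized with GnRH analogue, an intravaginal P4-releasing device and a PGF2alpha analogue, was seen in estrus, and received a further dose of GnRH analogue on day 0. Uterine luminal cells and blood were taken on day 4, 1 in vitro-produced embryo was transferred on day 7 and pregnancy was scored around day 30. The groups used are the 25 pregnant cows (14 of block 2 and 11 of block 1) and the 18 nonpregnant cows (8 of block 2 and 10 of block 1), which had the same treatment. Each cow gave 1 poly-A RNA library from a cytology brush.

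Progesterone is made by the corpus luteum that forms after ovulation. It acts through a nuclear receptor in the endometrium, and its rise in early diestrus changes what the luminal and glandular epithelium transports and secretes into the uterine lumen, on which the embryo depends before it attaches. A brush collects mainly cells of the luminal surface, and fewer cells of a type cannot be told apart from less RNA per cell in such bulk samples. None of the 27570 gene identifiers could be matched to a symbol, so the genes below carry no name or function, the markers of luminal epithelium and of other cell types could not be checked, and known P4 response genes could not be looked up.

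Progesterone spanned 2.41 doublings among the pregnant cows. Their P4 ran from 0.34 to 1.81 with a median of 0.86, against 0.27 to 1.88 with a median of 0.51 in the nonpregnant cows, in the unit of the labels, which is not stated. On the log2 scale the SD was 0.60 in pregnant cows (n = 25) and 0.88 in nonpregnant cows (n = 18). The rounds differed in range. Block 2 pregnant cows ran from 0.47 to 1.28 and block 1 pregnant cows from 0.34 to 1.81. Replicates 13 and 16, both of block 1, had the highest P4 of the pregnant cows (1.81 and 1.79). Replicates 12 and 13 (P4 of 0.34 and 1.81), also of block 1, alone held 33.3% of the sum of squares of log2 P4 around the block means. Sorted by P4, the 8 lowest cows reached from 0.34 to 0.58, the 9 middle cows from 0.69 to 0.92 and the 8 highest from 0.98 to 1.81. The lowest group held 4 cows of each block, the middle group 5 of block 2 and 4 of block 1, and the highest group 5 of block 2 and 3 of block 1.

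**Figure D1:**
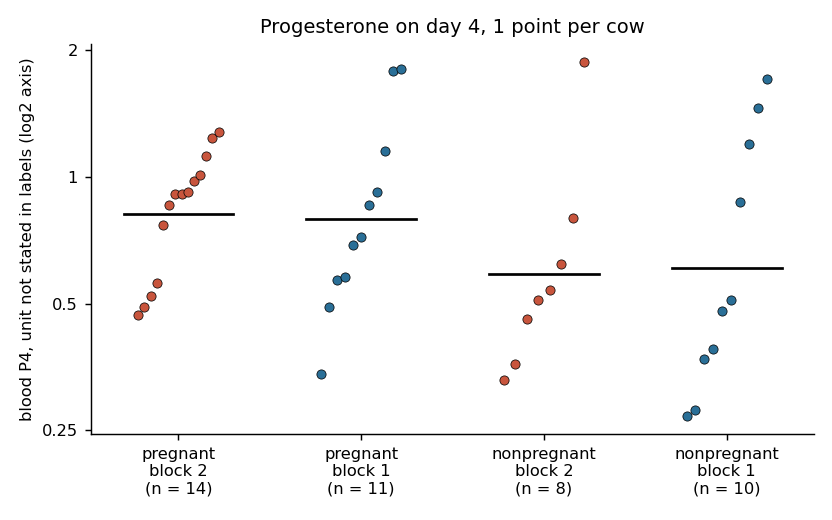
Blood P4 of each cow on day 4 (vertical log2 axis, unit not stated) by outcome and block, with bars at the geometric mean. Pregnant cows of block 2 reach 1.28 at most, while 2 pregnant cows of block 1 lie at 1.79 and 1.81.

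The pregnant cows' libraries held 12651316 to 23572549 counts (median 15324201), and the nonpregnant cows' held 11159501 to 20508214. Between 16705 and 18842 genes had at least 1 count in the pregnant cows, against 17430 to 18807 in the nonpregnant cows, and between 4.18% and 11.3% of a pregnant cow's counts fell on her 10 most abundant genes, against 3.7% to 11% in nonpregnant cows.

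Across all 25 pregnant cows no gene's level was associated with P4 past the threshold: 0 of 15206 genes (0%) had an adjusted p under 0.05 (edgeR quasi-likelihood test, lowest adjusted p = 0.158). Without adjustment, 739 genes had p under 0.05 (4.86%), of which 410 (2.7%) had a positive and 329 (2.16%) a negative slope on P4. With no association 760 would be expected, though the count can lie far from that where genes vary together within cows. DESeq2 called 4 genes, with 864 below 0.05 unadjusted, and limma voom called 0, with 798. The slopes, given as the log2 change per doubling of P4, were centred near 0, with quartiles at -0.10 and 0.10. Their 95% intervals had a median half-width of 0.30. For 89.1% of the genes the interval lay within a 2-fold change per doubling in either direction, and for 68.7% within a 1.5-fold change. These are intervals of single genes, unadjusted for how many were tested. The nonpregnant cows, with fewer animals and a wider range of P4, had 2058 genes under that unadjusted limit (13.5%) in the same fit, of which 1 passed adjustment (0.00658%). Standard errors were larger in pregnant than in nonpregnant cows for 76.2% of genes (median ratio 1.16). The number of genes at an unadjusted p under 0.05 in pregnant cows was 1189 without replicate 13 and 401 without replicate 16, the cows of highest P4. These were the highest and lowest counts with a single cow left out. Cows of lower P4 also moved it: it was 1066 without replicate 4 (P4 of 0.56) and 1042 without replicate 12 (0.34). Without replicate 23 (P4 of 1.24) it was 565.

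Expression level made little difference to that share in the pregnant cows. Of the 5069 genes of lowest mean level 5.03% had an unadjusted p under 0.05, of the 5068 in the middle 4.89% and of the 5069 of highest level 4.66%. In nonpregnant cows the same sets gave 8.96%, 12.4% and 19.3%. In pregnant cows the 236 genes of highest level with an unadjusted p under 0.05 (4.66%) were 151 leaning higher and 85 lower with P4. The 255 of lowest level under that limit (5.03%) were 121 leaning higher and 134 lower.

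The pooled slope joined rounds in which most slopes had opposite signs. Fitted alone, the 14 pregnant cows of block 2 had 1832 genes at an unadjusted p under 0.05 (12%) and the 11 of block 1 had 1295 (8.52%), though neither called a gene after adjustment (edgeR). The 15206 slopes had the same sign in both rounds for 37.8% of the genes. At an unadjusted p under 0.05 in both rounds, 23 genes had slopes of the same sign and 143 of opposite sign. Of the 1832 genes chosen in block 2, 27.2% had the same sign in block 1, with a median slope there of 0.10 against the chosen direction. These shares describe genes that vary together within the same cows, and they are not tests.

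**Figure D2:**
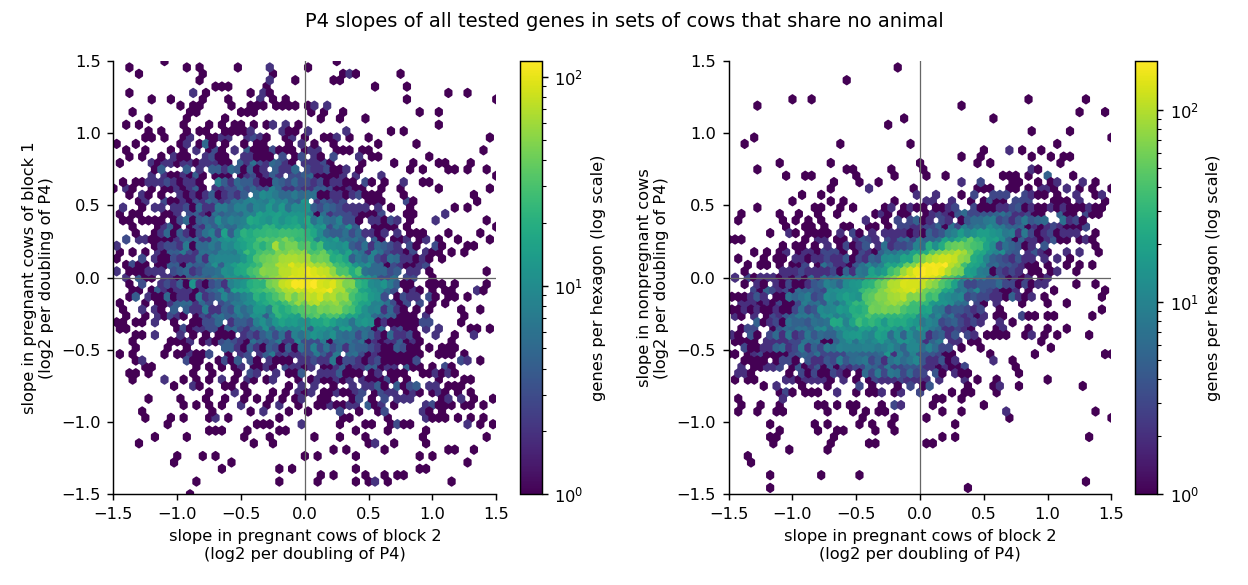
P4 slopes of each gene (log2 change per doubling) in the 14 pregnant cows of block 2 (horizontal) against the 11 pregnant cows of block 1 (left, vertical) and the 18 nonpregnant cows (right, vertical), with colour for the number of genes. The cloud falls on the left, where 37.8% of genes share a sign, and rises on the right, where 76.6% do. Slopes beyond 1.5 on either axis are not drawn (252 genes on the left, 180 on the right).

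The difference between the rounds was tested as the interaction of P4 with block among the pregnant cows. It called 1 gene of 15206 (0.00658%; edgeR). Unadjusted, 2373 genes passed 0.05 (15.6%), the slope of 1077 (7.08%) being greater and that of 1296 (8.52%) smaller in block 2 than in block 1. DESeq2 called 185 genes and limma voom 5. The called gene, ENSBTAG00000007170, is named because it was the only one. It ran from 17.5 to 32.6 CPM (median 19.3) in block 2 and from 11.4 to 28 CPM (median 17.6) in block 1. In block 2 it was highest in cows of low P4 (32.6, 32.1 and 28.5 CPM in replicates 14, 4 and 11, at P4 of 0.49, 0.56 and 0.47). In block 1 it was highest in the cows of highest P4 (28 and 25.9 CPM in replicates 16 and 13) and lowest in the cow of lowest P4 (11.4 CPM in replicate 12). Its slope was -0.56 ± 0.13 in block 2 and 0.43 ± 0.12 in block 1 (SE), a difference of -0.997 ± 0.156 (edgeR adjusted p = 0.0177). The adjusted p was 0.0691, 0.0707, 0.144 and 0.114 without replicates 4, 13, 14 and 16, and 0.711 without both cows of highest P4, with a difference of -0.95 there. Across all 25 cows its slope was 0.06 ± 0.12 (SE).

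Other sets of cows were set beside the rounds. Nonpregnant cows share no animal with the pregnant ones. Their slopes had the sign of the pregnant cows of block 2 for 76.6% of genes and that of the pregnant cows of block 1 for 34.9%. Of the genes at an unadjusted p under 0.05 in both sets, 631 agreed in sign and 4 did not for block 2, against 27 and 142 for block 1. Taken by round, the nonpregnant cows of block 2 (1721 genes at an unadjusted p under 0.05, 11.3%) shared the sign of pregnant cows of block 2 for 72.6% of genes and of pregnant cows of block 1 for 29.6%. Nonpregnant cows of block 1 (848 genes, 5.58%) shared it for 71.2% and 42.9%. Of the genes at an unadjusted p under 0.05 in pregnant and nonpregnant cows of block 1 alone, 42 agreed in sign and 24 did not, whereas between pregnant cows of block 1 and nonpregnant cows of block 2 the counts were 21 and 265. The 2 nonpregnant sets shared a sign for 66.2% of genes, so each pair of sets that left out the pregnant cows of block 1 agreed for at least 66.2% of genes and each pair that held them for at most 42.9%.

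When 2 cows were left out the sign shares were less unlike, and genes at small p in both sets no longer had mostly opposite signs. Without replicates 13 and 16, the 9 remaining pregnant cows of block 1 had 450 genes at an unadjusted p under 0.05 (2.96%), and their slopes shared the sign of pregnant cows of block 2 for 51.7% of genes and of nonpregnant cows for 51.5%. With the nonpregnant cows of block 2 and of block 1 taken apart the shares were 46.7% and 55.3%, still below the 66.2% between the nonpregnant sets. At an unadjusted p under 0.05 in both sets, 53 genes agreed in sign with pregnant cows of block 2 and 14 did not. With all 11 cows of block 1 these counts were 23 and 143. Against nonpregnant cows they were 71 and 7, where all 11 cows gave 27 and 142. Against nonpregnant cows of block 2 and of block 1 taken apart they were 28 and 22, and 83 and 3. Without replicates 13 and 16 the interaction of P4 with block had 734 genes at an unadjusted p under 0.05, against 2373 with all 25 cows, and called 0 (edgeR). The pooled fit on the 23 remaining pregnant cows had 1226 genes at an unadjusted p under 0.05 (8.06%), 604 higher and 622 lower, and called 0. With those 23 cows the slopes had the sign of the nonpregnant cows for 73.0% of genes, against 53.9% with all 25. At an unadjusted p under 0.05 in both outcomes, 420 genes agreed in sign and 2 did not, against 102 and 12 with all 25.

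The share of counts in the 10 most abundant genes had correlations with P4 of opposite sign in the rounds. Over all 25 cows the share of counts in the 10 most abundant genes did not pass against log2 P4 (r = 0.14 by Pearson, permutation p = 0.515, adjusted p = 0.738; Spearman rho = 0.24, permutation p = 0.255, adjusted p = 0.57). By round, r was -0.40 in block 2 and 0.73 in block 1, a difference of -1.13 (two-sided permutation of P4 within blocks, p = 0.00426, adjusted p = 0.0341 over 8 measures). No other of the 8 measures passed. Such a permutation removes any association in both rounds, so it cannot tell a difference between them from an association in a single round. In block 2 the shares were highest in 2 cows of low P4 (11.3% in replicate 14 and 9.95% in replicate 4). Replicates 9 and 11, of similar P4 (0.52 and 0.47), had 4.53% and 5.37%, and replicate 24 had 8.5% at P4 of 0.98. In block 1 the shares were highest in the 2 cows of highest P4 (9.75% in replicate 16 and 7.84% in replicate 13), and without them r was 0.13. Scores on the first principal component, which held 23.3% of the variance of log2 CPM, had r = -0.50 in block 2 and 0.42 in block 1, a difference that did not pass (permutation p = 0.0278, adjusted p = 0.111), and -0.05 in block 1 without those cows. Once the share of the 10 genes entered the model beside P4 and block, the interaction of P4 with block called 0 genes and had 1204 at an unadjusted p under 0.05. The difference for ENSBTAG00000007170 was then -0.905, against -0.997 without this term.

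**Figure D3:**
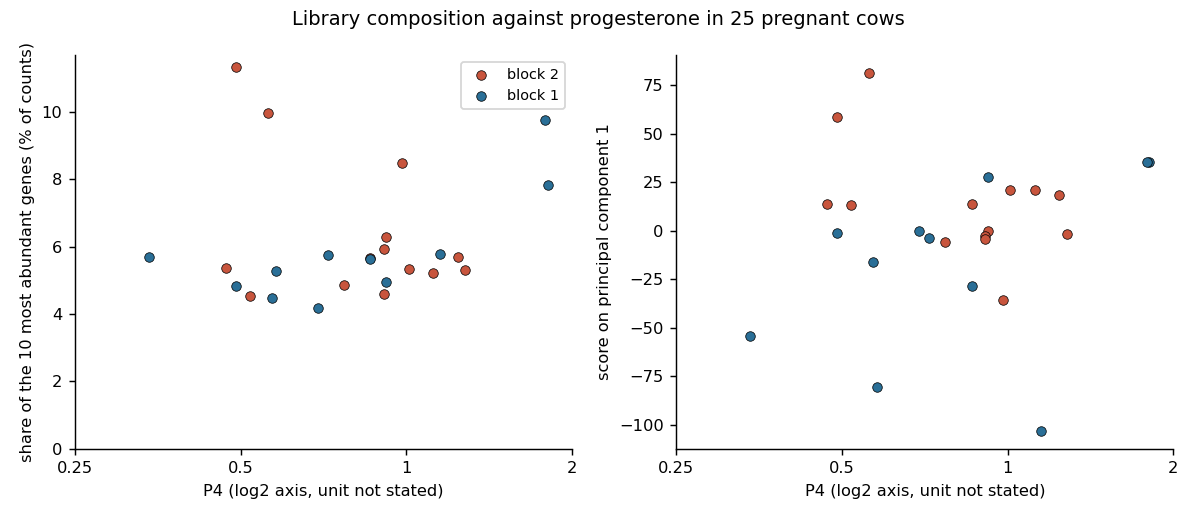
Share of counts in the 10 most abundant genes (left, % of counts) and score on the first principal component (right) against P4 (log2 axis, unit not stated) in the 25 pregnant cows, coloured by block. In block 2 the largest shares (11.3% and 9.95%) lie at low P4, and in block 1 the largest (9.75% and 7.84%) lie at the highest P4.

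Over all 25 pregnant cows, none of 5 principal components and 3 library measures (total counts, detected genes, share of the 10 most abundant genes) was associated with P4 past the threshold. The fourth component, with 7.57% of the variance, came nearest (Pearson r = -0.38, permutation p = 0.0571, adjusted p = 0.457 over 8 measures; Spearman rho = -0.37, permutation p = 0.0699, adjusted p = 0.559). Its r was -0.60 in block 2 and -0.24 in block 1, and -0.47 without replicates 12 and 13, the cows farthest from the median log2 P4. Unlike the first component, it had the same sign in both rounds. Without those 2 cows the third component had r = 0.50 (permutation p = 0.0156, adjusted p = 0.0946), against 0.26 with all 25. By round its r was then 0.03 in block 2 and 0.91 in block 1. Without replicates 13 and 16 instead, the third component had r = 0.18 (permutation p = 0.409, adjusted p = 0.766).

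The genes of smallest p are given as values, since none passed in the pooled fit. They were chosen by p in these same cows, so how far their P4 groups separate is no further evidence. ENSBTAG00000014555, the gene of smallest p, leaned lower with P4 without passing. It ran from 0.708 to 17.2 CPM (median 2.77) in the 8 cows of lowest P4, from 0.537 to 2.80 CPM (median 1.29) in the 9 middle cows and from 0.0917 to 2.85 CPM (median 0.941) in the 8 of highest P4. The groups overlapped, and 3 cows of low P4 stood apart: replicates 11, 12 and 4, at 17.2, 11.7 and 11.1 CPM, while the other 22 pregnant cows stayed at or below 2.99 CPM. Its slope was -1.84 ± 0.34 (SE; edgeR adjusted p = 0.158), with -2.13 ± 0.56 in block 2 and -1.67 ± 0.39 in block 1. It is a gene of few reads, with a median count of 20 per pregnant library. By limma voom the slope in pregnant cows was -1.34 (unadjusted p = 0.00866, adjusted p = 0.882). Nonpregnant cows, which played no part in choosing it, gave -1.07 ± 0.35 (SE; edgeR unadjusted p = 0.00595, adjusted p = 0.244). There too a few cows of low P4 stood apart. Nonpregnant replicates 3, 5 and 17 had 14.1, 9.36 and 7.59 CPM at P4 of 0.46, 0.33 and 0.28. The next nonpregnant cow had 3.46 CPM, and their median was 1.04 CPM.

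ENSBTAG00000006223 also leaned lower with P4. It ran from 1.24 to 6.81 CPM (median 2.82) in the cows of lowest P4, from 0.998 to 2.43 CPM (median 1.63) in the middle cows and from 0.55 to 2.13 CPM (median 1.44) in those of highest P4. All 8 cows of highest P4 lay below the median of the 8 lowest, and 4 lay below the whole of that group. The slope was -0.93 ± 0.19 (SE; edgeR adjusted p = 0.217), with -1.34 ± 0.30 in block 2 and -0.72 ± 0.27 in block 1, and -0.35 ± 0.21 in nonpregnant cows (edgeR unadjusted p = 0.106).

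ENSBTAG00000007206 leaned higher with P4. It ran from 15.6 to 29.2 CPM (median 23.2), from 17.7 to 33.9 CPM (median 23.3) and from 27.1 to 65.3 CPM (median 33.9) in the cows of lowest, middle and highest P4. Of the 8 highest cows, 6 lay above every cow of the lowest group. The slope was 0.51 ± 0.11 (SE; edgeR adjusted p = 0.217), a 1.43-fold higher level per doubling, with 0.32 ± 0.18 in block 2 and 0.61 ± 0.13 in block 1, and 0.33 without the 2 cows of highest P4. Nonpregnant cows gave 0.12 ± 0.15 (edgeR unadjusted p = 0.458).

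ENSBTAG00000050611 had the second smallest p, and 1 cow carried most of its slope. It ran from 2.53 to 11.4 CPM (median 9.03) in the cows of lowest P4, from 5.50 to 18.2 CPM (median 10.7) in the middle cows and from 5.70 to 248 CPM (median 13.9) in those of highest P4. Replicate 16 held the 248 CPM, and the next cow had 20.6 CPM. The slope was 1.42 ± 0.28 (SE; edgeR adjusted p = 0.217), and 0.46 without that cow. It was 0.72 ± 0.34 in block 2 and 1.68 ± 0.39 in block 1, and -0.11 ± 0.29 in nonpregnant cows.

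**Figure D4:**
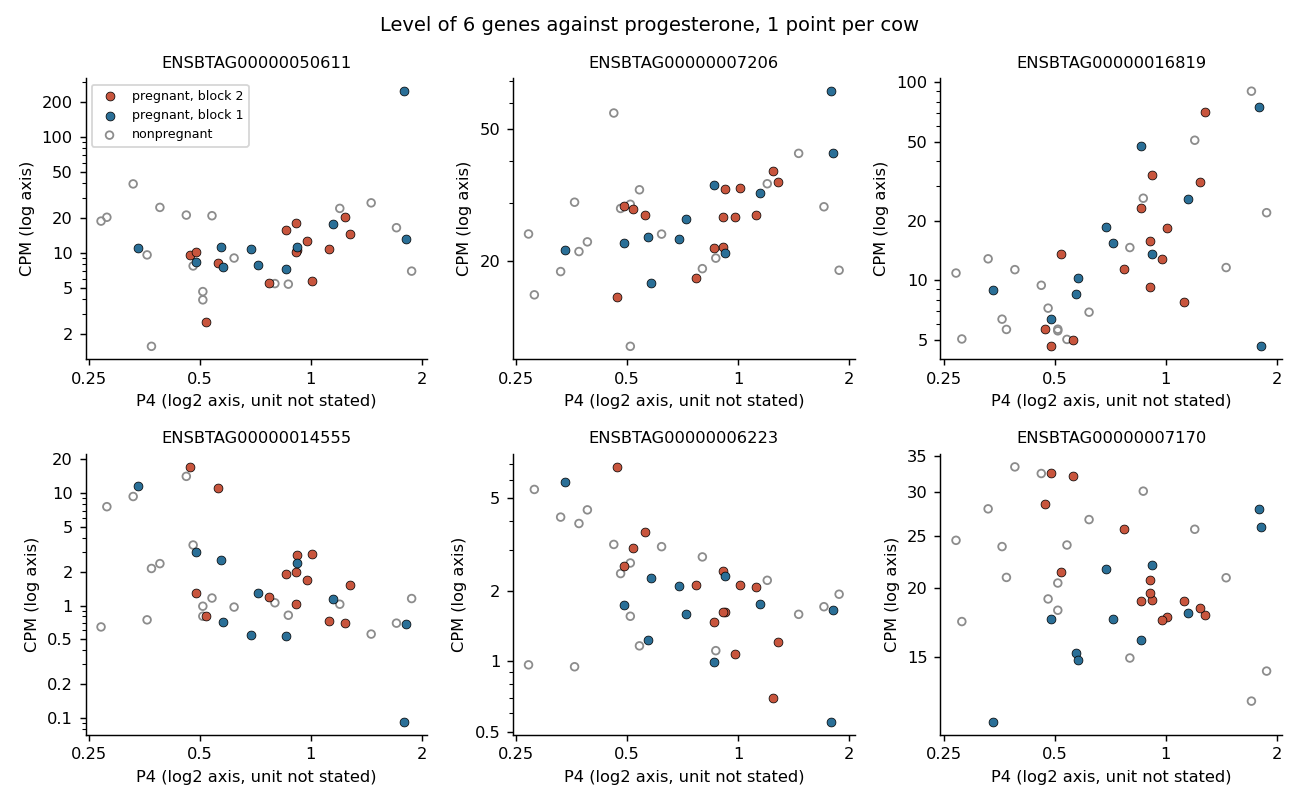
Level of 6 genes (CPM, log axis) against P4 (log2 axis, unit not stated), 1 point per cow, in pregnant cows of block 2 and block 1 (filled) and nonpregnant cows (open). Among the pregnant cows the top row leans higher with P4, and ENSBTAG00000014555 and ENSBTAG00000006223 lean lower. ENSBTAG00000007170 leans lower with P4 in pregnant cows of block 2 and higher in those of block 1. The 248 CPM of replicate 16 stands far above the other points of ENSBTAG00000050611.

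Genes with small p in nonpregnant cows mostly had the same sign in the pooled pregnant cows, and this differed by round. An unadjusted p under 0.01 was met by 156 genes in pregnant cows (1.03%) and by 561 in nonpregnant cows (3.69%). It was met in both by 7 genes, all with the same sign, which are 1.25% of the 561 and 4.49% of the 156, both near the shares of all genes. Of the 561 genes, 76.3% had the same sign in pregnant cows, and of the 81 with an unadjusted p under 0.001 (0.533%) 88.9% did, against 53.9% of all genes. Of those 81, 14 had an unadjusted p under 0.05 in pregnant cows in the same direction and 0 in the other (17.3%, against 3.08% of all genes in the same direction). The median slope of the 81 in pregnant cows was 0.20 in the direction of the nonpregnant cows, where their median size was 0.46. By round, 98.8% of the 81 had that sign in pregnant cows of block 2 and 46.9% in pregnant cows of block 1, where 2 had an unadjusted p under 0.05 in the same direction and 2 in the other. Chosen the other way round, of the 156 genes of the pregnant cows 10.3% had an unadjusted p under 0.05 in the same direction in nonpregnant cows, against 8.67% of all genes.

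Of the 20 genes with an unadjusted p under 0.001 in pregnant cows (0.132%), 1 also met it in nonpregnant cows, and it is named here after its values were seen. ENSBTAG00000016819 ran from 4.67 to 13.5 CPM (median 7.47) in the pregnant cows of lowest P4, from 9.29 to 47.6 CPM (median 15.8) in the middle ones and from 4.65 to 75.3 CPM (median 22.1) in those of highest P4. Of the 8 highest cows, 5 lay above every cow of the lowest group. Replicate 13 did not follow: at the highest P4 of all pregnant cows it had their lowest level, 4.65 CPM. The slope in pregnant cows was 1.37 ± 0.31 (SE; edgeR unadjusted p = 0.000138, adjusted p = 0.419), a 2.58-fold higher level per doubling. It was 1.79 ± 0.42 in block 2, 1.09 ± 0.40 in block 1 and 1.59 without replicate 13 (edgeR adjusted p = 0.0237, against up to 0.999 with another single cow left out). By limma voom it was 0.72 (unadjusted p = 0.0686). Nonpregnant cows gave 1.01 ± 0.20 (SE; edgeR unadjusted p = 7.15e-05). The slopes of the outcomes differed by 0.36 ± 0.37, with a 95% interval from -0.40 to 1.11.

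The gene called in nonpregnant cows alone, ENSBTAG00000031464, gave an independent test in the pregnant cows. It ran from 5.53 to 29.2 CPM (median 8.60) in pregnant cows and from 4.96 to 39.2 CPM (median 8.50) in nonpregnant cows. Its slope was 0.32 ± 0.21 in pregnant cows (SE; edgeR unadjusted p = 0.152) and 0.80 ± 0.12 in nonpregnant cows (SE; edgeR adjusted p = 0.0348). The difference was -0.48, with a 95% interval from -0.98 to 0.01 (edgeR interaction, unadjusted p = 0.0563). Limma voom did not call it in nonpregnant cows (adjusted p = 0.182).

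Whether the slope itself differed between outcomes was tested over all 43 cows. No gene passed (0%; edgeR interaction, lowest adjusted p = 0.787), and DESeq2 and limma voom also called 0, with 1036 and 1727 genes at an unadjusted p under 0.05. By edgeR 872 genes passed 0.05 unadjusted (5.73%), the slope of 619 (4.07%) being greater and that of 253 (1.66%) smaller in pregnant than in nonpregnant cows. Without the 2 pregnant cows of highest P4 that number was 315. It was 354 and 527 without pregnant replicate 16 and nonpregnant replicate 13, 412 without nonpregnant replicate 18, and 1435, 1460 and 1455 without pregnant replicates 4 and 14 and nonpregnant replicate 16. The 95% interval of the difference had a median half-width of 0.39 and lay within a 2-fold change per doubling for 78.4% of the genes. The genes of smallest p, which did not pass, were ENSBTAG00000050611 and ENSBTAG00000039012 on the higher side and ENSBTAG00000021134 and ENSBTAG00000050846 on the lower. The slope of ENSBTAG00000039012 was 0.40 ± 0.14 in pregnant and -0.30 ± 0.12 in nonpregnant cows (SE). That of ENSBTAG00000021134 was -0.24 ± 0.09 in pregnant and 0.19 ± 0.06 in nonpregnant cows (SE). That of ENSBTAG00000050846 was -0.57 ± 0.21 in pregnant and 0.63 ± 0.20 in nonpregnant cows (SE). ENSBTAG00000050611 differed by 1.64 ± 0.40 between outcomes, and by 0.57 without replicate 16.

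**Figure D5:**
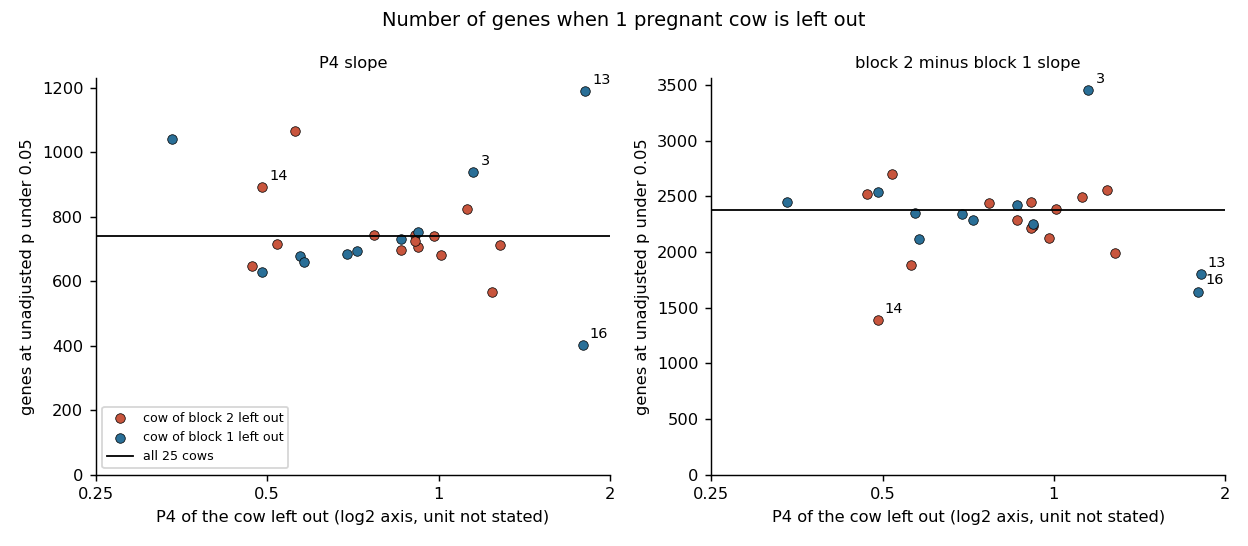
Genes at an unadjusted p under 0.05 (vertical) when 1 pregnant cow is left out, against that cow's P4 (log2 axis, unit not stated), for the P4 slope (left) and for the difference of slopes between blocks (right). The line is the value with all 25 cows (739 and 2373), and replicates 3, 13, 14 and 16 are numbered. Leaving out replicate 13 or 16 moves the left count to 1189 or 401. Leaving out replicate 14 moves the right count to 1391, and leaving out replicate 3 moves it to 3455.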

How the data were processed

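Poly-A libraries were read on a NovaSeq instrument, per the labels' protocols. RNA integrity varied between samples, per the labels' protocols, which do not tie it to single cows. The authors deposited 1 table of counts per Ensembl gene for each cow, per the file headers, and the values are whole numbers with unequal totals. Per the submitters' processing notes, HISAT2 and HTSeq were used with the build ARS-UCD1.2, beside Trim Galore 0.4.4 and FastQC 0.11.7. Whether counting used strand or split shared reads is not given in the sources used here, so overlapping or near-identical genes are uncertain. The gene table used here (ARS-UCD2.0) lists no Ensembl identifiers.

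Genes kept by filterByExpr (minimum count 10, smallest group 18, giving 15206 genes) and TMM factors of all 43 libraries were used in each main fit. Some alternatives changed the filter or the factors. Log2 P4 and block were fitted with edgeR 4.0.16 (robust quasi-likelihood F-test, R 4.3.3), p-values were adjusted by Benjamini-Hochberg over all genes, and the threshold was 0.05. The SE is the absolute slope divided by the square root of F. Permutation tests used 100000 resamples. DESeq2 1.42.0, with its own size factors from the cows of each fit, and limma 3.58.1 were alternatives. Each cow is 1 independent sample, and replicate numbers follow accession order.

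The fits of the slope in pregnant cows and of its difference between blocks were first tested on simulated counts. Genes were drawn independently, and 200 of 15206 were given a change of 1.5-fold, 2-fold or 3-fold per doubling of P4. The fit of the slope recovered 55.2%, 70.1% and 89.4% of these, with 8 false calls. The fit of the difference between blocks recovered 1.49%, 16.4% and 56.1%, with 2 false calls.

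The cows, gene lists and tests were chosen with earlier results of these data known. The gene lists could not be used without symbols, and the rule for named genes was limited to 2 identifiers for each direction, those of smallest p among genes whose mean log2 CPM was 0 or more, beside genes called in nonpregnant cows. Comparisons of slope signs between sets of cows and the permutation of P4 within blocks were added after the data were seen.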

Additional observations from a re-analysis of the deposited data

Results flagged for a closer look

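The difference of the P4 slope between the rounds of synchronization is flagged for ENSBTAG00000007170 among the pregnant cows, because a test of the difference itself passed. Its log2 slope per doubling of P4 was 1.00 lower in block 2 than in block 1 (-0.997; edgeR interaction, adjusted p = 0.0177). The adjusted p ran from 1.8e-06 with DESeq2 to 0.711 without the 2 cows of highest P4.

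The share of counts in the 10 most abundant genes is flagged because its difference between the rounds passed a permutation of P4 within blocks. Its correlation with log2 P4 was -0.40 in the 14 cows of block 2 and 0.73 in the 11 cows of block 1, a difference of -1.13 (permutation p = 0.00426, adjusted p = 0.0341 over 8 measures). That permutation removes any association in both rounds, so it cannot tell a difference between them from an association in a single round. Without replicates 13 and 16 the correlation in block 1 was 0.13, and the permutation test was added after the data were seen. The part of this share of counts in the slopes of single genes was not tested, beyond the fit that holds it as a covariate.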

How the results depend on the processing

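The P4 slope in pregnant cows called 0 genes under the other alternatives, but 4 with DESeq2, 10 with no low-count filter, 2 with P4 on the linear scale, 1 with line and curve and 1 without the 4 libraries over 8% in their 10 most abundant genes. Without 1 library it called 0 to 4 genes (1 without replicate 9, 4 without replicate 13). The 4 genes of DESeq2 and those without replicate 13 were in both cases ENSBTAG00000014555, ENSBTAG00000006223, ENSBTAG00000050611 and ENSBTAG00000016819. The difference between outcomes called 7 genes with no low-count filter and 0 otherwise, also without each library. The difference between blocks called 185 genes with DESeq2, 5 with limma voom, 3 with linear P4, 2 with ranked P4 and 2 with detected genes as a covariate. It called 0 with no low-count filter, with log2 total counts or the 10-gene share as covariate, and without the 2 cows of highest P4. Without 1 library it called 0 to 310: 0 without replicates 4, 13, 14 or 16, 2 without replicates 9, 11, 12 or 25, 3 without replicate 24 and 310 without replicate 3, the library with the fewest detected genes (16705). Nonpregnant cows gave 144 genes with DESeq2 and 0 with limma voom. The cause of these changes was not tested. No named gene changed the sign of the slope, or difference of slopes, for which alternatives were run. For ENSBTAG00000007170 this was the difference between blocks only, and its slope was -0.56 in block 2 and 0.43 in block 1. Single libraries were not left out for nonpregnant cows alone. The principal components gave 0 associations under each alternative. The line and curve, the highest against lowest 8 cows, the fit without libraries over 8%, single libraries left out of the block difference, the principal components without the 2 cows farthest in log2 P4 and the alternatives for nonpregnant cows were chosen after seeing the data. No paired analysis was possible because the groups hold different cows, numbered only in order of accession. Intervals were wider for genes of low level, and the parts of depth and of variation between cows were not tested: the median half-width of the slope interval was 0.52 in the 5069 genes of lowest level and 0.21 in the 5069 of highest.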
